A study of Schizosaccharomyces pombe with 144 samples.

Results

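In the fission yeast Schizosaccharomyces pombe, 10 genes of iron uptake and iron control were followed through meiosis: fio1, fip1, frp1, str1, str2, str3, sib1, sib2, fep1 and php4. They were chosen by name from the 5157 genes of the deposited RNA table, and all 10 were found. Fission yeast takes up iron along a pair of routes. In the reductive route a surface reductase reduces ferric iron, and an oxidase and a permease that work together carry the iron in. In the other route the cell makes ferrichrome, a small iron-binding molecule (a siderophore), and transporters bring the loaded siderophore back. The GATA-type repressor Fep1 shuts the uptake genes when iron is plentiful, while Php4, a repressor subunit of the CCAAT-binding complex, shuts genes that spend iron when it is scarce. Each of these repressors is also known to act on the gene of the other.

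The study followed heterochromatin marks through meiosis, and its RNA libraries served to check that the cultures moved through meiosis in step. RNA was read from 1 growing culture (mitosis) and at each hour from 0 h to 8 h of meiosis, giving 10 libraries with 1 library per stage. All 10 came from strain SPB2819, a diploid of mating type h-/h- with ade6-M210/ade6-M216. Both copies of pat1, the kinase that holds back meiosis, were deleted with NatR and replaced by pat1-as(L95A), an allele made sensitive to an inhibitor, marked with HygR. The strain also carried cen2(D107) with KanR-ura4+-lacO, his7+ with lacI-GFP, and lys1 with MatPc-Bleo, and was wild type for the histone methyltransferase gene clr4. All values thus come from a single engineered strain, and the medium of each meiotic stage was not given in the sources used here.

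Levels are RPKM, reads scaled to gene length and library total, as the authors deposited them. The libraries had been scaled to between 14998460 reads (6 h) and 20734255 reads (mitosis), and at least 208 reads stood behind every level of the 10 genes. With 1 library per stage there is no replicate check and no test. Intervals are exact 95% Poisson intervals on the reads, which cover counting error only. A change is a difference in log2(RPKM + 1), and a gene was called when it passed 4-fold with at least 5 RPKM in either library. In bulk RNA, fewer cells expressing a gene and less RNA per cell cannot be told apart. The stage labels were checked on meiotic genes: mei2, which starts the meiotic programme, stood at 14.1 RPKM in mitosis and 1240 at 0 h. The middle meiotic genes spo4, spo6 and mes1 were highest at 6 h, mei4 at 5 h, and the spore gene isp3 at 8 h, where it held 13.6% of all reads. Across the 5157 genes, the 2 h library correlated with its neighbours at r = 0.96 (1 h) and 0.95 (3 h), and 1 h with 3 h at 0.94.

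**Figure D1:**
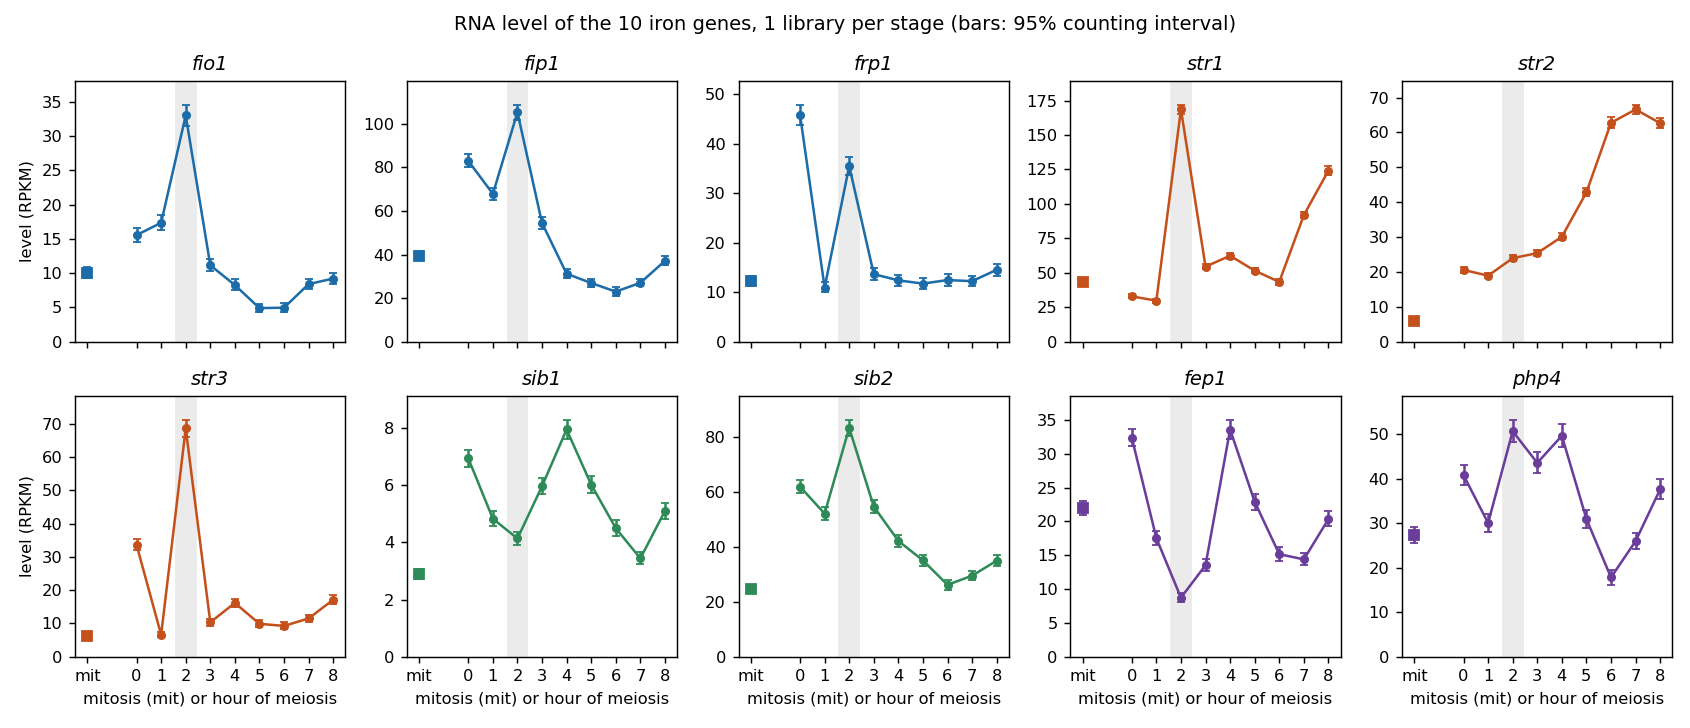
RNA level (RPKM, linear axis from 0) of each of the 10 genes in mitosis (square) and at 0 h to 8 h of meiosis (circles), 1 library per stage, with 95% counting intervals as bars and 2 h shaded. For 6 genes the highest meiotic level is at 2 h, led by str1 at 169 RPKM, while fep1 is at its lowest there, at 8.73 RPKM.

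The common feature of the courses was a single hour. Of the 10 genes, 6 (fio1, fip1, str1, str3, sib2 and php4) had their highest level of 0 h to 8 h in the 2 h library, where 8.22% of all genes peaked. With frp1 added, 7 of 10 stood above both neighbouring hours at 2 h, as 14.1% of all genes did. The repressor gene fep1 went the other way, with its lowest meiotic level at 2 h, 1 of 10 beside 16.1% of all genes. Since 1 library holds this hour, a change of the cells and a feature of that library cannot be told apart. The same 6 genes peaked at 2 h after the libraries were rescaled to a common median ratio, and 13.5% of all genes then did. Rescaling put 8 of 10 above both neighbours at 2 h (str2 added), beside 25.8% of all genes, and 2 of 10 at their lowest there (fep1 and sib1), beside 15.7%.

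Among the genes of reductive uptake, frp1 encodes the surface ferric reductase. It stood at 12.2 RPKM in mitosis, at 45.8, 10.95 and 35.5 RPKM from 0 h to 2 h, and between 11.7 and 14.5 RPKM from 3 h to 8 h. Its high levels were thus at 0 h and 2 h, with a low level between them close to that of mitosis. The ratio of 2 h to 1 h was 3.24 (95% interval 2.91 to 3.61).

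The gene fio1 encodes the multicopper oxidase that works with the permease. Its level was 10.1 RPKM in mitosis, 15.6, 17.4 and 33.0 RPKM from 0 h to 2 h, 11.2 and 8.26 RPKM at 3 h and 4 h, and then 4.90, 4.96, 8.40 and 9.22 RPKM at 5 h to 8 h. The 2 h level was above every other library, by 1.9-fold over 1 h (95% interval 1.76 to 2.06) and 2.96-fold over 3 h (2.69 to 3.26). From 4 h to 7 h the gene was below its level in mitosis, and at 8 h it differed from mitosis by less than counting error. After rescaling, the 7 h level was 12.1 RPKM beside 11.4 in mitosis, so that order flipped.

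The permease gene fip1 was the more abundant of the pair. It stood at 39.4 RPKM in mitosis, at 83.0, 67.9 and 105 RPKM from 0 h to 2 h, and at 54.5, 31.2, 26.9, 23.0, 27.0 and 37.1 RPKM from 3 h to 8 h. Its step from 1 h to 2 h was 1.55-fold (95% interval 1.47 to 1.64), smaller than that of the oxidase gene. Both genes therefore shared an early high phase and a late low one. In the RefSeq annotation (ASM294v3) fip1 and fio1 are neighbours that point away from each other, with no protein-coding gene between them. Their courses were the most alike of the 45 pairs, with a Pearson r of 0.94 over the 10 libraries, and the level of fip1 was 3.19 (2 h) to 5.49 (5 h) times that of fio1 per length.

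The siderophore transporter genes did not share a course. Str1 is a ferrichrome transporter of the cell surface. The gene str1 was at 43.2 RPKM in mitosis, at 32.9, 29.8 and 169 RPKM from 0 h to 2 h, at 54.5, 62.4, 51.6 and 43.4 RPKM from 3 h to 6 h, and at 91.9 and 124 RPKM at 7 h and 8 h. It was thus high at 2 h and again at the end. The ratio of 2 h to 1 h was 5.66 (95% interval 5.37 to 5.96), and that of 3 h to 2 h was 0.323 (0.310 to 0.337). At 2 h it was the most abundant of the 10 genes per length, ahead of fip1 by more than counting error.

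Str3 is a siderophore transporter that is also known to take in heme. The gene str3 was at 6.27 RPKM in mitosis, at 33.6, 6.58 and 68.6 RPKM from 0 h to 2 h, and between 9.27 (6 h) and 17.1 RPKM (8 h) later. It alternated by the hour at the start, low in the mitotic and 1 h libraries and high in the 0 h and 2 h libraries. Its 2 h level was 10.4 times that of 1 h (95% interval 9.17 to 11.9), which ranked 13 from the highest among all 5157 genes on the log2 scale. Its course was most like that of frp1 among the 10 genes, with r = 0.87.

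The str2 row was higher in late than in early libraries and, as deposited, did not stand above both neighbouring hours at 2 h. After rescaling it did, at 23.2 RPKM beside 16.1 at 1 h and 21.8 at 3 h. It was at 5.87 RPKM in mitosis, at 20.6, 18.9, 23.95, 25.4 and 30.1 RPKM from 0 h to 4 h, and at 42.8, 62.7, 66.6 and 62.6 RPKM from 5 h to 8 h. The late libraries were thus the high ones, and 8 h was 10.7 times mitosis (95% interval 9.94 to 11.5). The length behind its RPKM was recovered as 6910 bases, beside a RefSeq exonic length of 6692. In the RefSeq annotation 3 genes on the opposite strand overlap str2: apn1, rpl6 and jmj4. Whether the authors' counting used strand is not given in the sources used here, so reads of str2 and of these genes may not be separated. The overlapping ribosomal protein gene rpl6 had 60599 reads in mitosis beside 841 for str2, and 17273 beside 9521 at 7 h. How far the overlapping genes add to the str2 row was not tested.

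Ferrichrome is built from ornithine that Sib2, an ornithine N5-monooxygenase, has hydroxylated, and the large synthetase Sib1 joins the pieces. The gene sib2 was at 24.6 RPKM in mitosis, at 62.0, 52.2, 83.4 and 54.7 RPKM from 0 h to 3 h, and at 42.2, 35.1, 26.2, 29.6 and 35.0 RPKM from 4 h to 8 h. It followed fip1 (r = 0.88) and fio1 (r = 0.82), with the 2 h level 1.60 times that of 1 h (95% interval 1.51 to 1.69). The synthetase gene sib1 was low throughout, at 2.89 RPKM in mitosis, 6.94, 4.83, 4.14, 5.97 and 7.95 RPKM from 0 h to 4 h, and 6.02, 4.50, 3.44 and 5.10 RPKM from 5 h to 8 h. Its 2 h level lay in a dip between 0 h and 4 h, and the ratio of sib2 to sib1 per length was widest there, at 20.2, beside 5.31 at 4 h. The 2 genes are divergent neighbours like fip1 and fio1, but their courses were less alike, with r = 0.41, which became -0.17 after rescaling.

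Of the regulators, fep1 encodes the repressor of the uptake genes. It was at 22.0 RPKM in mitosis, at 32.4, 17.5 and 8.73 RPKM from 0 h to 2 h, at 13.5 and 33.6 RPKM at 3 h and 4 h, and at 22.9, 15.2, 14.4 and 20.3 RPKM from 5 h to 8 h. Its high libraries were 0 h and 4 h, on either side of the low at 2 h, where it was 0.270 times the 0 h level (95% interval 0.246 to 0.295). The gene php4 was at 27.3 RPKM in mitosis, at 40.8, 30.1, 50.7, 43.6 and 49.7 RPKM from 0 h to 4 h, and at 31.0, 17.8, 26.0 and 37.6 RPKM from 5 h to 8 h. It was 1.69 times higher at 2 h than at 1 h (95% interval 1.55 to 1.83), and its 2 h and 4 h levels differed by less than counting error. The ratio of php4 to fep1 per length was 1.24 in mitosis, 1.26 at 0 h and 1.72 at 1 h. It then stood at 5.81 at 2 h and 3.22 at 3 h, and between 1.176 and 1.85 from 4 h on, so the 2 h library was the one in which the regulators lay farthest apart.

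**Figure D2:**
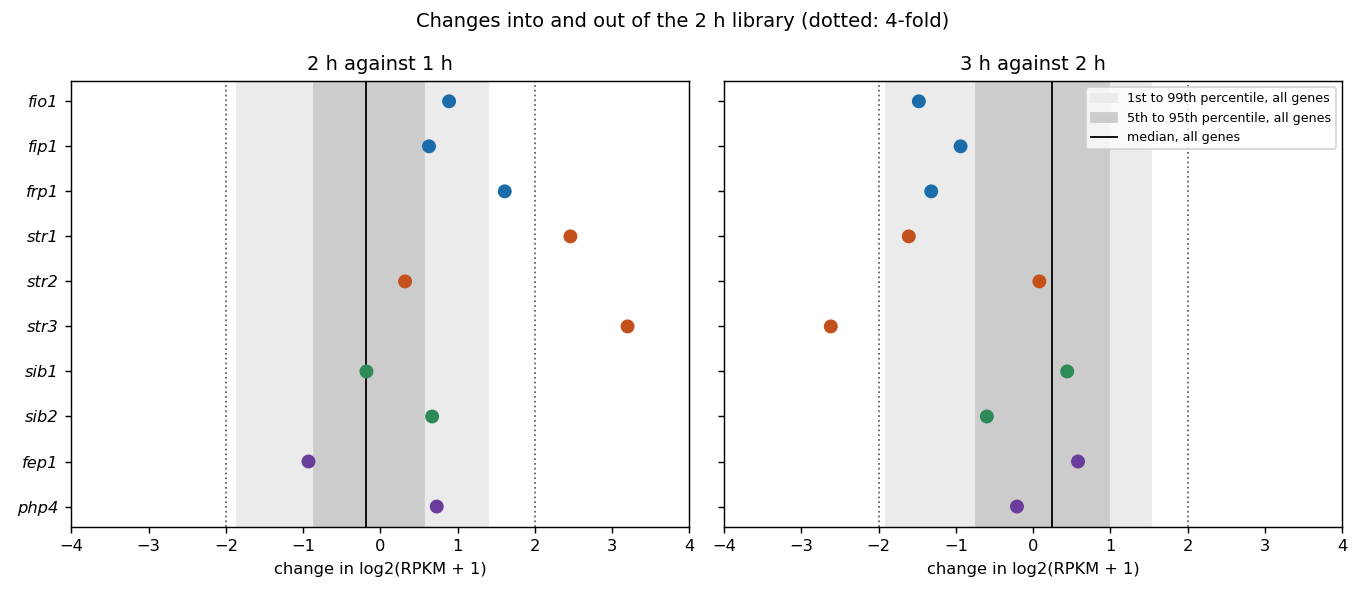
Change in log2(RPKM + 1) of each of the 10 genes (points, coloured by role) from 1 h to 2 h and from 2 h to 3 h, beside the percentiles and median of the 4921 and 4927 genes with at least 5 RPKM in either library. From 1 h to 2 h str3, str1 and frp1 lie above the 99th percentile (1.39), and from 2 h to 3 h str3 lies below the 1st (-1.90).

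The steps into and out of 2 h were set against all genes. From 1 h to 2 h, str1 (2.46) and str3 (3.20) were called higher, 2 of 10 beside 0.582% of all genes, and none was called lower, beside 0.776%. At 2-fold, frp1 (1.61) joined them, so 3 of 10 were higher beside 1.73% and none lower beside 3.3%. The median change of the 10 genes was 0.70, beside -0.19 over all genes. In this step sib1 was below 5 RPKM in both libraries and could not be called.

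The step from 2 h to 3 h ran the other way. Here str3 (-2.62) was called lower, 1 of 10 beside 0.892% of all genes, and none was called higher, beside 0.407%. At 2-fold, fio1 (-1.48), frp1 (-1.32), str1 (-1.61) and str3 were lower, 4 of 10 beside 3.28%, and none was higher, beside 4.48%. The median change of the 10 was -0.77, beside 0.23 over all genes. These 2 steps share the 2 h library, so they are not separate evidence of a pulse.

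Between growing cells and 0 h most of the 10 genes were higher at 0 h, but so were many others. Only str3 (2.25) was called higher, 1 of 10 beside 8.9% of all genes, and none was called lower, beside 3.47%. At 2-fold, 6 of 10 were higher, namely fip1, frp1, str2, str3, sib1 and sib2, beside 27.9% of all genes, and none was lower, beside 9.13%. The median was 1.04, beside 0.52 over all genes; after rescaling it was 0.58 beside 0.04, and str3 (1.77) was then no longer past 4-fold. By 8 h, str2 alone stood past 4-fold above mitosis (3.21), 1 of 10 beside 9.39%, and none stood below, beside 4.09%. The other 9 genes had changes of -0.11 to 1.50 between those libraries.

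Against 0 h, str1 at 2 h (2.32) was the only gene of the 10 called higher at any hour, beside 7.56% of all genes, and str2 (2.48 at 7 h) joined it after rescaling. The only one called lower was str3 at 1 h (-2.19), beside 13.1%, with frp1 just under the limit at that hour (-1.97). At 2-fold, 4 of 10 were higher at some hour (fio1, str1, str2 and str3), beside 20.6% of all genes. Another count at 2-fold gave 7 of 10 lower at some hour (fio1, fip1, frp1, str3, sib2, fep1 and php4), beside 50.3%, so lower levels at some hour were common to the whole table. At 7 h the median of the 10 was -0.94 against 0 h, beside -0.78 over all genes. After rescaling these medians were -0.17 and 0.01. All these comparisons share the 0 h library.

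**Figure D3:**
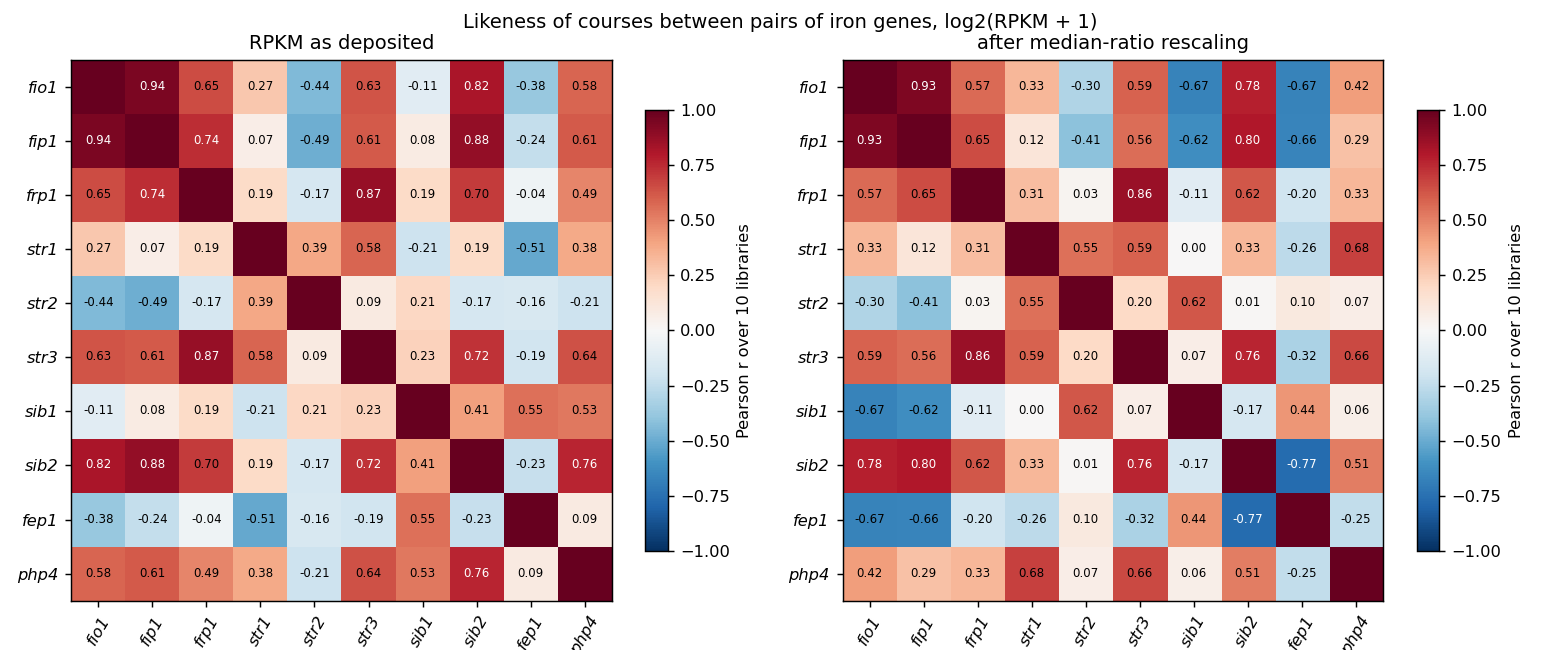
Pearson r of log2(RPKM + 1) over the 10 libraries for each of the 45 pairs of the 10 genes, from the RPKM as deposited (left) and after median-ratio rescaling (right). The block of fio1, fip1, frp1, str3 and sib2, grouped after r was seen, has r from 0.61 (fip1 and str3) to 0.94 (fip1 and fio1) as deposited. The genes str1, str2, sib1, fep1 and php4 lie outside it, though php4 has r from 0.49 (frp1) to 0.76 (sib2) with its genes as deposited.

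Likeness of courses was uneven among the 10 genes. A core of fio1, fip1, frp1, str3 and sib2 was grouped after the r values were seen. Over the 45 pairs the median r was 0.23, with a range of -0.51 (str1 and fep1) to 0.94. The 10 points of each r share their libraries and scaling, so r is given as a description. Within this core the lowest r was 0.61 (0.56 after rescaling), a value that follows from the way the core was chosen. Other genes of the uptake routes lay outside it, with r to fip1 of 0.07 (str1), 0.08 (sib1) and -0.49 (str2). The gene php4 was nearest to sib2 (0.76), and its lowest r with a core gene was 0.49 (frp1), so its r overlapped those within the core. After rescaling the r of php4 with the core genes ran from 0.29 (fip1) to 0.66 (str3). The fep1 course had its highest r with sib1 (0.55), and negative values with each of the core genes: fio1 (-0.38), fip1 (-0.24), frp1 (-0.04), str3 (-0.19) and sib2 (-0.23). After rescaling these were -0.67, -0.66, -0.20, -0.32 and -0.77, in that order, while the r of str1 and fep1 went from -0.51 to -0.26. Negative values were not particular to fep1. With the same core genes, in that order, sib1 had -0.67, -0.62, -0.11, 0.07 and -0.17 after rescaling.

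Outside the 10 genes, the courses most like theirs came from varied genes. For fip1 and fio1 the nearest was the same uncharacterized gene, SPAPB24D3.06c, with r = 0.98 and 0.94. For str3 the nearest were the cysteine transporter gene SPCPB1C11.03 (0.91), the potassium channel subunit gene osr2 (0.85) and the glutathione transporter gene pgt1 (0.83). The str2 row was closest to the meiotic drive family genes wtf18, wtf20 and wtf22, each at 0.99. For str1 the nearest was SPBC1347.09 (0.88), for frp1 ppi1 (0.83), and for php4 arz1, SPAC521.02 and rtr1 (each 0.88). The nearest to fep1 were tsc2 (0.93) and poz1 (0.91), to sib1 the GATA-type factor gene SPCC1393.08 (0.96), and to sib2 vip1 and spc34 (each 0.97). After rescaling, r fell to 0.58 for ppi1, 0.70 for arz1, 0.66 for SPAC521.02 and 0.60 for rtr1. For the other genes named here it was 0.81 (osr2) or more. The search covered 4927 genes with a mean of at least 5 RPKM.

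**Figure D4:**
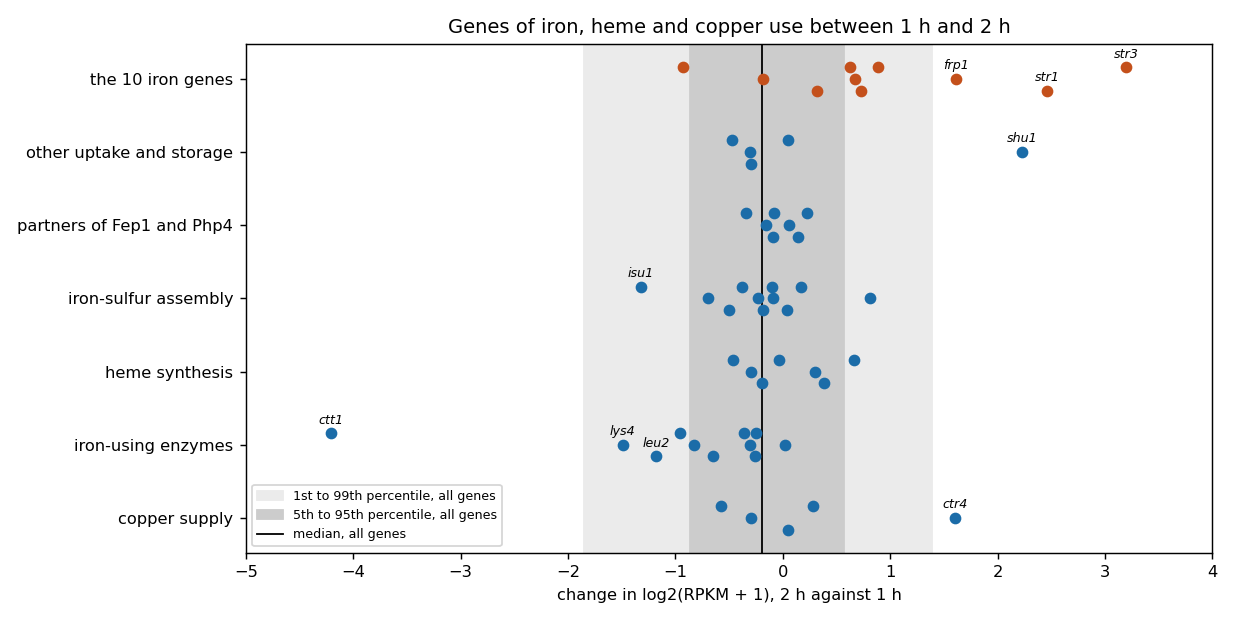
Change in log2(RPKM + 1) from 1 h to 2 h of the 10 iron genes and of 6 lists of related genes (points), with the percentiles and median of the 4921 genes at 5 RPKM or more in either library; genes past 2-fold are named. The points right of the 99th percentile (1.39) are str3, str1, shu1, frp1 and ctr4, and ctt1 lies farthest left at -4.21.

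Of 5 other genes of uptake, synthesis and storage, 1 moved with the pulse. The gene shu1 encodes a surface protein that takes up heme. It stood at 1.59 RPKM in mitosis, at 11.1, 11.2 and 56.3 RPKM from 0 h to 2 h, at 8.00 RPKM at 3 h, and between 4.95 and 17.8 RPKM later. Its high library was 2 h, 5.02 times 1 h (95% interval 4.23 to 5.98), and it was called higher at that step (2.23) and lower at the next (-2.67). It was also called higher at 2 h than at 0 h (2.24), ranking 48 from the highest among all 5157 genes. Of the 5, it was the only one called higher than 0 h at any hour as deposited, beside 7.56% of all genes. The call of a higher level at 0 h than in mitosis (2.23), 1 of 5 beside 8.9%, was lost after rescaling (1.81). It lies beside str3 on the same strand with no protein-coding gene between them, and r between them was 0.81.

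The others of that list did not pass 4-fold in these steps. The gene pcl1, for the transporter that stores iron in the vacuole, was lowest at 2 h, at 64.3 RPKM beside 89.5 at 1 h and 156 at 3 h. Its change from 1 h to 2 h was -0.47 (-0.29 after rescaling), beside a 5th percentile of -0.86. Of all genes, 16.1% had their lowest meiotic level at 2 h. The gene sib3, for an acyltransferase of ferrichrome synthesis, had its low at 2 h too (76.2 RPKM) and reached 438 RPKM at 6 h. Its change at 6 h against 0 h was 1.76, and 2.51 after rescaling, which is past 4-fold. The changes of abc3 (0.05) and frp2 (-0.30) from 1 h to 2 h were small.

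Among 7 partners of Fep1 and Php4, none passed even 2-fold from 1 h to 2 h (1.73% of all genes higher, 3.3% lower) or from 2 h to 3 h (4.48% higher, 3.28% lower). The changes into 2 h ran from -0.34 (tup12) to 0.23 (grx4). The gene grx4, for the glutaredoxin that helps both regulators sense iron, was highest of all libraries at 2 h, at 171 RPKM. Against 0 h, the corepressor gene tup11 was called lower, with 58.3 RPKM at 0 h and 6.84 at 6 h (-2.92, or -2.22 once rescaled). That was 1 of 7, beside 13.1% of all genes lower at any hour. The CCAAT-binding subunit genes php2, php3 and php5 had their largest changes against 0 h late, at -1.94 (7 h), -1.45 (6 h) and -1.57 (8 h), where the medians over all genes were -0.78, -0.69 and -0.47. After rescaling these changes were -1.13, -0.70 and -1.03.

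Most genes of iron-sulfur assembly, heme synthesis and iron-using enzymes did not have their highest meiotic level at 2 h. The genes nfs1, atm1, hem12, hem14 and rip1 did, beside 8.22% of all genes. After rescaling nfs1 was highest at 7 h and atm1 at 8 h, while hem12, hem14 and rip1 stayed highest at 2 h. The gene nfu1 then narrowly joined them (73.3 RPKM beside 73.1 at 1 h), and the share of all genes was 13.5%. Of 11 iron-sulfur assembly genes none was called against 0 h at any hour, beside 7.56% of all genes called higher and 13.1% called lower. From 1 h to 2 h only the scaffold gene isu1 passed 2-fold, from 269 to 107 RPKM (-1.32), 1 of 11 beside 3.3% lower. The mitochondrial exporter gene atm1 had the largest change upward in that step, from 12.3 to 22.2 RPKM (0.81), and stood at 11.5 RPKM at 3 h. The median of the list in that step was -0.18, beside -0.19 over all genes. Of 7 heme synthesis genes none passed 2-fold in the step. The coproporphyrinogen oxidase gene hem13 was called lower at 0 h than in mitosis, from 318 to 52.6 RPKM (-2.57), 1 of 7 beside 3.47% of all genes. Against 0 h, hem3 and hem12 were called lower at 6 h (-2.01 and -2.35), 2 of 7 beside 13.1% lower at any hour. After rescaling hem3 and hem12 no longer passed (-1.30 and -1.61).

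Of 11 iron-using enzymes, 3 passed 2-fold downward from 1 h to 2 h, beside 3.3% of all genes, and none upward, beside 1.73%, with a median of -0.65 beside -0.19. They were the catalase gene ctt1, from 1161 to 61.9 RPKM (-4.21), the homoaconitase gene lys4, from 951 to 338 RPKM (-1.49), and leu2, from 202 to 88.5 RPKM (-1.18). Only ctt1 passed 4-fold, 1 of 11 beside 0.776%. Both ctt1 and lys4 had their highest level at 1 h, so the step is from a high 1 h library. The genes sdh2 and cyc1, of respiration, were lowest at 2 h, at 177 and 176 RPKM. Among the hours of meiosis sdh4, glt1 and ilv3 were lowest there too, beside 16.1% of all genes. The Rieske protein gene rip1 did not share that low, with 621 RPKM at 1 h and 628 at 2 h. From 2 h to 3 h, 3 of 11 passed 2-fold upward (sdh2, cyc1 and ctt1), beside 4.48% of all genes. After rescaling, sdh2 (171 to 324 RPKM) and, narrowly, ctt1 (59.9 to 120 RPKM) no longer passed on the log2(RPKM + 1) scale. Against mitosis, ctt1 was called higher at 0 h (2.52), 1 of 11 beside 8.9% of all genes, and ilv3 lower (-2.29), 1 of 11 beside 3.47%. Against 0 h, lys4 was called higher at 1 h (2.77), 1 of 11 beside 7.56% higher at any hour. The gene ctt1 was called lower than 0 h, most at 6 h (-2.86), 1 of 11 beside 13.1% lower at any hour.

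The oxidase Fio1 needs copper, and 5 genes of copper supply were followed. The surface copper transporter gene ctr4 was at 250.4 RPKM in mitosis, at 138.8, 17.6, 55.4 and 115 RPKM from 0 h to 3 h, and between 46.2 and 82.1 RPKM later. It was low at 1 h, as frp1 and str3 were, but was higher at 3 h than at 2 h, where those genes were lower. It was called lower at 1 h than at 0 h (-2.91), ranking 15 from the lowest among all 5157 genes. Of the 5, it was the only one called lower than 0 h at any hour, beside 13.1% of all genes. Its change from 1 h to 2 h was 1.60. The other 4 genes changed by -0.58 (ccc2) to 0.28 (ctr5) from 1 h to 2 h.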

How the data were processed

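The authors deposited 1 table of RPKM per gene for 10 RNA libraries (a stranded kit for total RNA according to the labels). The submitters' processing notes name bcl2fastq 1.17, cutadapt 1.18, STAR 2.7.3a, Bowtie 1.2.2, SAMtools 1.9 and bedtools 2.27.1 and 2.26.0, with builds ASM294v2 and mm10. For the counter, its annotation and its use of strand, nothing is given in the sources used here. TPM columns of the same table, deposited by the authors, entered no comparison, and 134 of 144 samples are not analysed here. The whole reads behind each RPKM were recovered for all 5157 genes, each within 0.001 read of a whole number, by a procedure tested on simulated data. They gave the counting intervals and not a test. Values were compared as log2(RPKM + 1) with a 4-fold size rule and a 5 RPKM minimum in either library. Alternatives were pseudocounts of 0.1 and 5, a 2-fold limit, no minimum or 20 RPKM, median-ratio rescaling (factors 0.695 to 1.26) and leaving out single hours. RefSeq (ASM294v3) gave only names, products, lengths and neighbours. The 10 genes and the lists were chosen with earlier results of these data known. Genes named besides the 10 are list genes past the size rule or with the largest and smallest changes, and for each of the 10 genes up to 3 nearest courses. Those named for a low or high at 2 h, for the regulatory partners' late changes or for a 2-fold change were chosen after their values were seen. A planned search of promoters for motifs was not run. Computations used Python 3.11.15 with SciPy 1.17.1, NumPy 2.4.6 and pandas 2.3.3; plots used matplotlib 3.10.9.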

Additional observations from a re-analysis of the deposited data

How the results depend on the processing

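Counts of the 10 genes past the size rule are small, so 1 gene can move them. Higher at 0 h than in mitosis went from 1 (str3) to 0 with a pseudocount of 5 or after rescaling, and to 6 at 2-fold. Higher than 0 h at any hour went from 1 (str1) to 2 after rescaling (str2 added), to 4 at 2-fold, and to 0 without the 2 h library. Lower than 0 h at any hour went from 1 (str3) to 2 with a pseudocount of 0.1 (frp1 added), to 0 with a pseudocount of 5 or without the 1 h library, and to 7 at 2-fold. Lower at 3 h than at 2 h went from 1 to 4 at 2-fold. The genes with 2 h above both neighbours went from 7 to 8 after rescaling (str2 added), while the share of all genes went from 14.1% to 25.8%. The median r went from 0.23 to 0.29 after rescaling and 0.16 without mitosis. The largest change against 0 h turned from a late fall to a 2 h rise after rescaling for fio1 (-1.49 to 1.30), sib2 (-1.21 to 0.70) and php4 (-1.15 to 0.58). Of the recomputed counts, 35 stayed within 1.5 times of the value reported, the change from 7 to 8 and counts that stayed at 0 among them. Another 13 recomputed values were classed as moved, those of the median r among them. The recomputations of the 2 h peaks and of both steps around 2 h were chosen after seeing the data. No paired analysis was possible because each stage has 1 library, which also leaves no replicate to leave out. Depth limits fio1 most, with 208 reads at its lowest, then str3 with 258; the spread between cultures is not known.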
